A study of Mus musculus with 8 samples.

Results

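The nuclear genes for subunits of respiratory complexes II to V were compared between 2 classes of hippocampal place cells. The 37 members were taken by gene name from the 15519 genes of the deposited table. The rule itself uses no measured value, though the set was proposed with earlier results of these data known. They comprise 4 genes of complex II, 9 of complex III, 11 of complex IV, 12 of complex V and Cycs, the gene of cytochrome c. The libraries held nuclear RNA of hippocampal pyramidal cells of wild-type mice, prepared with a SMART-Seq mRNA kit. Place cells are neurons that fire at particular locations. There were 4 libraries labelled Day 0 place cell and 4 labelled Recurring place cell, both wild type and with no treatment named. The labels define the classes no further, and they give no age, sex, batch or date. The titles carry different mouse numbers, which is the only sign that the libraries came from separate animals. The p values therefore measure the spread between these libraries, which may be partly technical. Replicate numbers follow accession order and pair no libraries.

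The respiratory chain of the inner mitochondrial membrane passes electrons from fuel to oxygen and stores the energy as a proton gradient. Complex II oxidises succinate as part of the tricarboxylic acid cycle and reduces ubiquinone. Complex III passes those electrons to cytochrome c, complex IV hands them to oxygen, and complex V, the ATP synthase, makes ATP from the gradient. Complexes III, IV and V combine proteins encoded in the nucleus with a few encoded in mitochondrial DNA, while complex II is wholly nuclear. Neurons draw most of their ATP from this pathway. NRF1 and the ETS family factor GABP are known regulators of many of the nuclear genes.

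Sequences before the annotated starts are shown for 4 members. Atp5mg and Uqcrh had the largest differences between the groups, Atp5mg and Cox6a1 held both motif cores searched for, and Cycs is a classical NRF1 target. Each is the 250 bases before the RefSeq start on GRCm38.p6, written 5′ to 3′ on the strand of the gene, with matches to the NRF1 core GCGCATGC and the ETS core CCGGAAG, or to their reverse complements, in capitals. The windows lie on the minus strand at chr9:44920743-44920992 for Atp5mg, chr4:116075071-116075320 for Uqcrh, chr5:115348959-115349208 for Cox6a1 and chr6:50566570-50566819 for Cycs.
Atp5mg: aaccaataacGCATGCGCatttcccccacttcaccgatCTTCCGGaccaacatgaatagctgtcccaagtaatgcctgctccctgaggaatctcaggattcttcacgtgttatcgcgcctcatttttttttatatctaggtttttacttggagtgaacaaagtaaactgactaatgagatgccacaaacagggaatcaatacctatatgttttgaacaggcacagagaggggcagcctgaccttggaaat
Uqcrh: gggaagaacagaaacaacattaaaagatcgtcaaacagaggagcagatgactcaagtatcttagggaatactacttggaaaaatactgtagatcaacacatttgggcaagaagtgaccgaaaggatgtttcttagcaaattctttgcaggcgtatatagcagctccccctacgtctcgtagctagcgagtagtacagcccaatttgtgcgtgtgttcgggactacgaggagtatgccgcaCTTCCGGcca
Cox6a1: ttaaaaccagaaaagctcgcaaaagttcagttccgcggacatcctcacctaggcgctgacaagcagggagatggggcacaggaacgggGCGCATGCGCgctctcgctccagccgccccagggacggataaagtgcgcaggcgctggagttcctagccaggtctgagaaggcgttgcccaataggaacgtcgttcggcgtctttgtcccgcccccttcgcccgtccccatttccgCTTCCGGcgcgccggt
Cycs: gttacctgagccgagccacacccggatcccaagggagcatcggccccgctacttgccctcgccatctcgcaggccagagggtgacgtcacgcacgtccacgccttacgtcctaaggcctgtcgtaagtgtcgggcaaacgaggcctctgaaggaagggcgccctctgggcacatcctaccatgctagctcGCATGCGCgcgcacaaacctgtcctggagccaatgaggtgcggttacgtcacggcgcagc
In the Atp5mg window the NRF1 core began 240 bases and the ETS core 212 bases before the start. In the Uqcrh window the ETS core began 10 bases before the start. In Cox6a1 the capitals 162 to 153 bases before the start hold overlapping matches on both strands, and the ETS core began 16 bases before the start. In Cycs the NRF1 core began 60 bases before the start.

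RefSeq held windows for 29 members, 31 windows in all, and 8 members had none. The NRF1 core was in 6 of the 31 windows (19.35%), those of Sdhb, Cycs, Cox6a1, Atp5mc2, Atp5me and Atp5mg, against 2.26% of all 32851 windows of this length. The ETS core was in 7 (22.58%), those of Sdhd, Uqcrh, Uqcr11, Cox6a1, Cox6b1, Atp5f1e and Atp5mg, against 6.91% of all windows. Both strands were searched. The CCAAT box (CCAAT) was in 17 windows (54.84%) against 33.85%, the Sp1 box (GGGCGG) in 8 (25.81%) against 32.74%, the TATA box (TATAAA) in 1 (3.23%) against 12.37%, and the YY1 core (AAGATGG) in 0 (0.0%) against 4.49%. A match describes letters in a window, and binding was not measured.

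The libraries held 8374986 to 14887866 reads, recovered from the deposited values. Below, reads are these whole reads, and a normalized count is the reads divided by the library's size factor, which lay between 0.837 and 1.61. The 12 CA1 pyramidal neuron markers in the table, of 14 listed, had a mean level of 9.60 ± 0.50 in Day 0 and 9.96 ± 0.42 in Recurring libraries (log2 of the normalized count plus 1, SD, n = 4). With bulk libraries, fewer cells of a type and less RNA per cell cannot be told apart. For genes that overlap a neighbour, as exons of 10 members do in GENCODE vM21, reads of both could not be told apart if counting ignored strand, which is not given in the sources used here. Of the members, 13 have a pseudogene with at least 95% identity over 100 bases or more, so their reads are uncertain to that extent.

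Transcripts of most respiratory subunits were detected in every library. All 37 members passed the filter, which asked for 4 or more libraries at a normalized count of at least 10. Reads were found in every library for 33 of them (89.2%), against 54.4% of the 11078 genes tested. Of the 296 member values, 8 were at 0 (2.70%), against 11.3% of the values of all genes tested. The members at 0 in any library were Sdhc, Cycs, Atp5f1e and Atp5mc2. Member reads made up 0.395% ± 0.0519 of all reads in Day 0 and 0.427% ± 0.141 in Recurring libraries (SD, n = 4). The individual shares were 0.441, 0.416, 0.321 and 0.400% in Day 0 replicates 1 to 4. They were 0.255, 0.470, 0.391 and 0.591% in Recurring replicates 1 to 4, so the Recurring libraries held both the lowest and the highest share.

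Per kilobase of annotated exon, the most abundant members were Atp5f1b, at a mean normalized count of 1256 over the 8 libraries, Cox8a at 1253, Atp5f1a at 1156, Cox4i1 at 976.5, Atp5mc3 at 913.6 and Uqcr10 at 900.2. The least abundant were Sdhc at 30.1, Atp5mc2 at 39.1 and Atp5f1e at 55.3. Exon lengths ran from 584 to 6443 bases and count every annotated exon, so a gene with long, rarely used exons, such as Atp5mg at 6443 bases, is set low on this scale.

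The comparison asked which genes separate Recurring from Day 0 place cells. None of the 37 members passed the threshold, an adjusted p of 0.05 by limma with Benjamini-Hochberg adjustment over all 11078 genes, where 0% of all genes passed. The lowest adjusted p was 0.981, among the members as over all genes. Only Atp5mg among the members was under an unadjusted p of 0.05, 1 of 37, against a background of 3.62% of all genes. That count was 0 without Recurring replicate 2, and 2 without Day 0 replicate 1, which added Uqcrh, or without Recurring replicate 4, which added Uqcr10. In no member did the normalized counts of the groups fail to overlap, against 2.41% of all genes. In all, 20 members were higher and 17 lower in Recurring libraries, with a median difference of 0.05 on the log2 scale, against 50.1% higher and a median of 0.005 over all genes tested. Differences are Recurring minus Day 0 in log2 of the normalized count plus 1, which understates the difference of low genes.

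**Figure D1:**
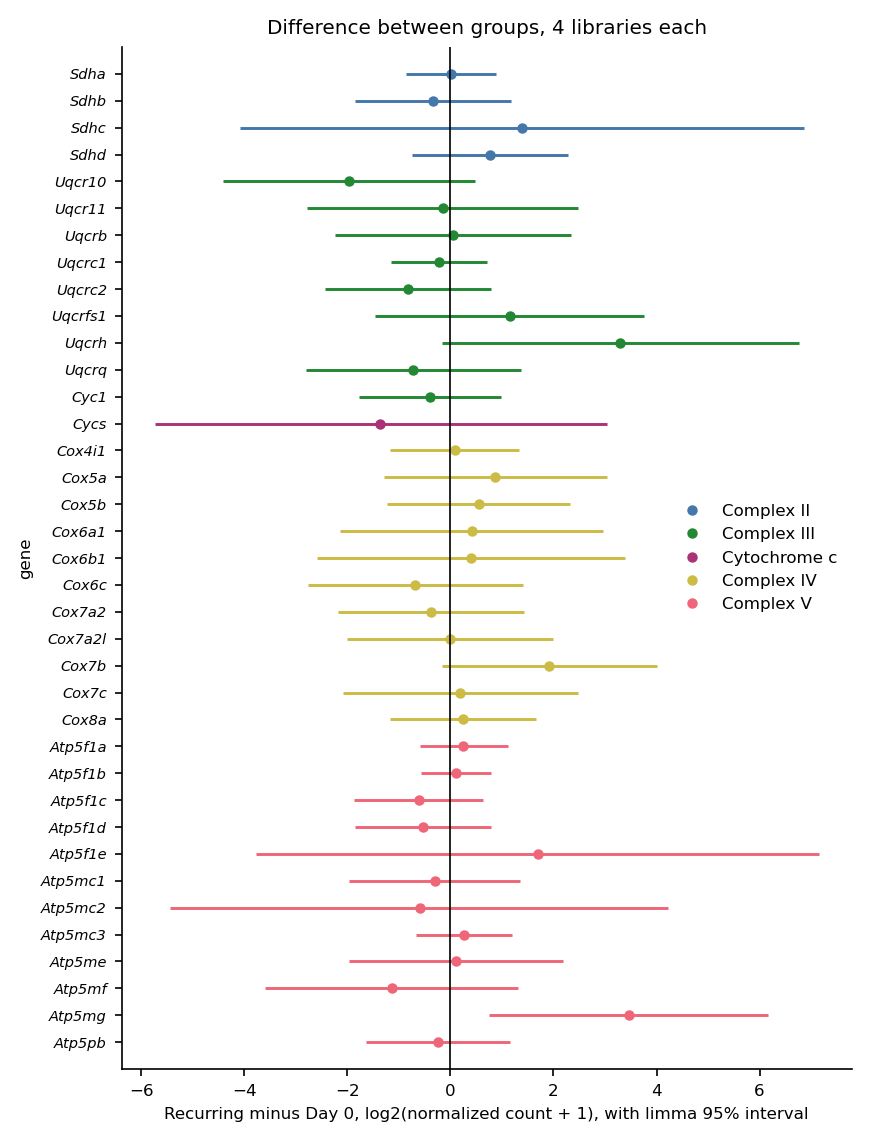
Difference between Recurring and Day 0 for each of the 37 members, in log2(normalized count + 1), with limma's 95% interval as a line and colour for the complex. All intervals but that of Atp5mg, 0.75 to 6.17, include 0, and none of the members passed the adjusted threshold.

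By complex, 3 of 4 members of complex II were higher in Recurring libraries (median difference 0.39), 3 of 9 of complex III (median -0.23), 8 of 11 of complex IV (median 0.24) and 6 of 12 of complex V (median -0.07), and Cycs was lower (-1.36). These counts depended on single libraries. Without Recurring replicate 1 the count higher was 29 of 37 (median 0.43), with 3 of 4, 5 of 9, 10 of 11 and 10 of 12 in complexes II, III, IV and V. Without Recurring replicate 4 it was 14 of 37 (median -0.17), with 2 of 4, 3 of 9, 4 of 11 and 5 of 12. The medians of complexes III, IV and V changed sign with one or the other of these libraries left out, at 0.11 for complex III without replicate 1, -0.01 for complex IV without replicate 4 and 0.38 for complex V without replicate 1. The choice of fit also turned signs: with library weights the median was -0.10 in complex II and 0.09 in complex V, and by voom it was -0.10 in complex IV, with 4 of 11 higher.

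The same 2 libraries often stood at the ends among the members. Recurring replicate 1 had the lowest normalized count of the 8 libraries in 18 members (48.6%), where it was lowest, ties counted, in 26.3% of all genes tested. Recurring replicate 4 had the highest in 17 members (45.9%), against 14.3% of all genes tested. By contrast Recurring replicate 2 was lowest in 0 members, against 20.4% of all genes. No test was made of these counts. Related gene lists shared part of the pattern. The mean log2 level of the complex I subunits was also lowest in Recurring replicate 1, at 6.94, and highest in Recurring replicate 4, at 9.38. That of the adenine nucleotide, phosphate and porin carriers was 9.41 and 11.48 there, again its lowest and highest. Cytosolic ribosomal protein genes were highest in Recurring replicate 4 (8.92) but lowest in Day 0 replicate 3 (7.23). No other pathway list had both libraries at its ends. Averaged over the 37 members, the deviation of a library from each gene's mean was -1.25 in Recurring replicate 1 and 0.89 in Recurring replicate 4. The other 6 libraries lay between -0.49 and 0.52. In Recurring replicate 1 the deviation was 0.43 for complex II, -0.91 for complex III, -1.07 for complex IV and -1.74 for complex V. In Recurring replicate 4 it was -0.27, 0.47, 1.30 and 0.96 in the same order.

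**Figure D2:**
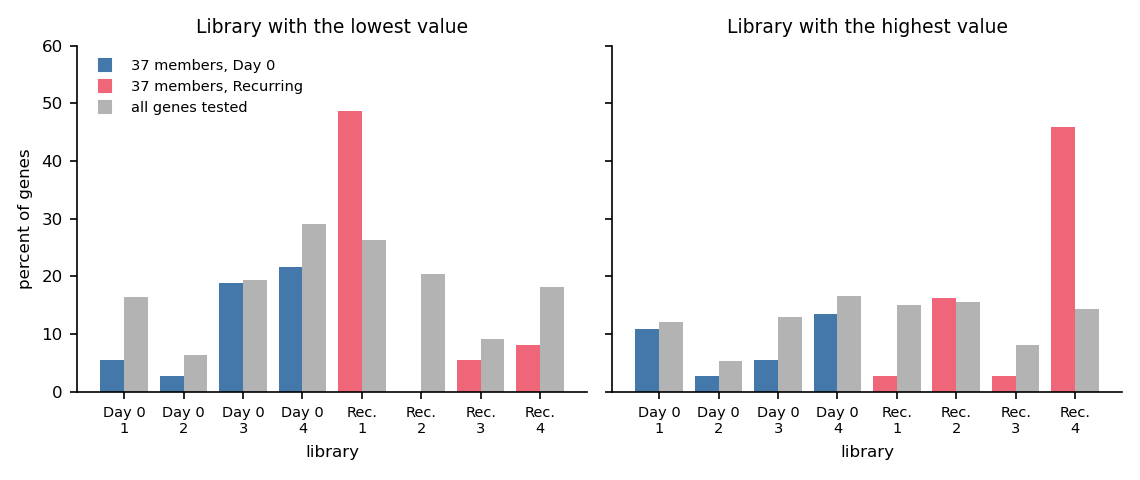
Percent of genes whose lowest (left) or highest (right) normalized count over 8 libraries lies in each library, for the 37 members (coloured by group) and for all genes tested (grey). Recurring replicate 1 holds the lowest value of 48.6% of members and Recurring replicate 4 the highest of 45.9%.

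Markers of other cell types also differed between these libraries. Of the astrocyte list, 11 of 12 genes were in the table, and 7 of the 10 tested were higher in Recurring libraries. Its mean log2 level ran from 5.0 to 7.86 in Day 0 and from 6.31 to 9.41 in Recurring libraries, highest in Recurring replicate 1. Its genes differed in sign. Plpp3 differed most, by 6.83 (SE 2.14), then Aldh1l1 by 4.50 (SE 2.02) and Slc1a3, a glutamate transporter, by 3.90 (SE 1.48). Slc1a2 (-0.02, SE 0.97), Gfap (-0.98, SE 1.08) and Ntsr2 (-1.08, SE 1.02) had negative differences. In 3 of the 10 tested limma's unadjusted p was under 0.05, against 3.62% of all genes. In 2 the groups did not overlap, against 2.41% of all genes. None passed the adjusted threshold. In 1 to 3 libraries each, Gja1, Plpp3, Aldh1l1 and Gpc5 were at 0, while Slc1a2, Slc1a3, Aldoc, Gfap, Slc4a4 and Ntsr2 had reads in all 8. Of the microglia list, 5 of 10 genes were in the table, and 3 of the 4 tested were higher in Recurring libraries. Its level ran from 1.55 to 4.64 in Day 0 and from 3.45 to 9.93 in Recurring libraries, highest in Recurring replicate 4, and its marker Tmem119 was at 0 in the 4 Day 0 libraries and in Recurring replicate 1. The choroid plexus and ependymal list had 4 of 8 genes in the table and 1 tested. Its level was lower in Recurring libraries and, unlike those of the astrocyte and microglia lists, did not overlap between the groups. It ran from 3.80 to 6.35 in Day 0 and from 2.26 to 3.10 in Recurring libraries. Foxj1 and Dnah12 were at 0 in all 4 Recurring libraries, but had at most 67 and 33 reads in a Day 0 library. Both missed the filter, as did Kl. Enpp2, the gene tested, had reads in all 8 libraries and differed by -0.08 (SE 0.65). The interneuron list, with 10 of 11 genes in the table and 5 of 7 tested higher, ran from 2.31 to 6.65 in Day 0 and from 3.35 to 8.16 in Recurring libraries, highest in Recurring replicate 2. The levels of the other lists overlapped between the groups. The part of these cells in the respiratory values was not tested.

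**Figure D3:**
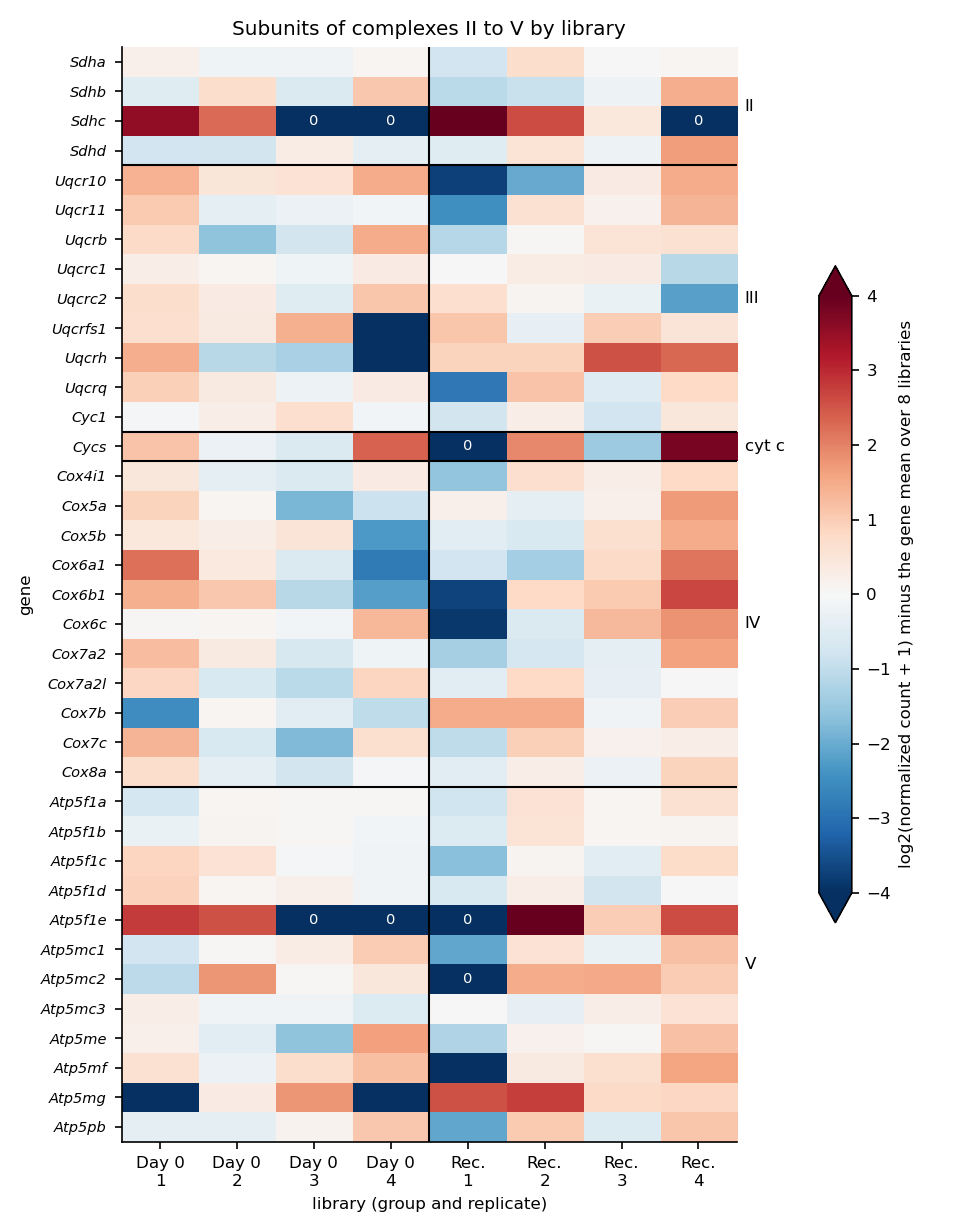
Log2(normalized count + 1) of each member in each library, less the gene's mean over the 8 libraries, on a colour scale that saturates at 4 either way; a white 0 marks no reads. Recurring replicate 1 is low and Recurring replicate 4 high over much of complexes IV and V, while rows such as Sdha, Uqcrc1 and Atp5f1b stay pale.

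Complex II is the succinate dehydrogenase of the tricarboxylic acid cycle. Sdha, its FAD-carrying catalytic subunit, had 4153, 2975, 2035 and 2835 reads in the Day 0 libraries and 2527, 5440, 2526 and 2771 in the Recurring libraries, each in the order of replicates 1 to 4. Its normalized counts averaged 2683 ± 340.9 and 2861 ± 1163 (SD, n = 4), the groups overlapped, and the log2 difference was 0.01 with a 95% interval of -0.86 to 0.88. It was 1 of 2 members whose interval lay within 1 log2 unit of 0, as did the intervals of 1.98% of all genes tested.

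Sdhb, the iron-sulfur subunit, had 823, 1750, 485 and 1813 reads in Day 0 and 666, 584, 717 and 2331 in Recurring libraries. Both groups held a high and a low library, and the log2 difference was -0.34 (SE 0.72). The membrane anchors Sdhc and Sdhd bind ubiquinone. Sdhd had 547, 518, 700 and 537 reads in Day 0 and 792, 1250, 563 and 2171 in Recurring libraries, a log2 difference of 0.77 (SE 0.72), with Recurring replicate 4 the highest. Sdhc had 305, 118, 0 and 0 reads in Day 0 and 513, 146, 24 and 0 in Recurring libraries. It was therefore missing from libraries of both groups, and its log2 difference of 1.38 (SE 2.60) had the largest SE of the 37 members.

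Complex III carries electrons from ubiquinone to cytochrome c. Its core proteins Uqcrc1 and Uqcrc2 support its assembly. Uqcrc1 had 3739, 3050, 1708 and 2916 reads in Day 0 and 3828, 3521, 2755 and 1063 in Recurring libraries. Normalized, the first 7 of these lay between 2041 and 2923 and Recurring replicate 4 stood at 1078, and the log2 difference was -0.23 (SE 0.44). Uqcrc2 had 1511, 1103, 414 and 1489 reads in Day 0 and 1787, 933, 541 and 151 in Recurring libraries, with Recurring replicate 4 again the lowest. Its log2 difference was -0.83 (SE 0.76). Per length, the log2 ratio of Uqcrc1 to Uqcrc2 was 0.75 ± 0.45 in Day 0 and 1.35 ± 0.73 in Recurring libraries (SD, n = 4), and it was above 0 in all 8.

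The 2 members of complex III with the smallest unadjusted p were small subunits, with differences of opposite sign. Uqcrh, the hinge protein that contacts cytochrome c1, had 552, 85, 50 and 2 reads in Day 0 and 445, 339, 818 and 724 in Recurring libraries. Day 0 replicate 1, at a normalized count of 410.4, stood above Recurring replicates 1 and 2, at 275.6 and 273.7, so the groups overlapped. The log2 difference was 3.30 (SE 1.64), with limma's unadjusted p at 0.0604 and its adjusted p at 0.981. Without Day 0 replicate 1 it was 4.34 with an adjusted p of 0.978. Uqcr10 is another small accessory subunit. It had 1177, 576, 420 and 921 reads in Day 0 and 39, 101, 391 and 913 in Recurring libraries. Recurring replicates 1, 2 and 3 were below every Day 0 library, while Recurring replicate 4, at a normalized count of 926.3, was above all of them. The log2 difference was -1.97 (SE 1.16), with limma's adjusted p at 0.981, and without Recurring replicate 4 it was -2.79 with an adjusted p of 0.982.

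The remaining members of complex III had log2 differences between -0.72 and 1.15. Cyc1, the haem-bearing cytochrome c1, had normalized counts of 691.6 to 1187 in Day 0 and 439.6 to 1016 in Recurring libraries (-0.39, SE 0.65). Uqcrfs1, the Rieske iron-sulfur protein, was at 12 normalized counts in Day 0 replicate 4 and at 276.9 or more in the other 7 libraries. Its log2 difference of 1.15 (SE 1.24) was -0.24 without that library. The small subunits Uqcrq (-0.72, SE 0.99) and Uqcr11 (-0.15, SE 1.25) were spread more widely in Recurring libraries, with log2 SDs of 1.80 and 1.66, than in Day 0, with 0.48 and 0.65. Uqcrb (0.05, SE 1.09) had SDs of 1.41 in Day 0 and 0.81 in Recurring libraries.

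Cycs encodes cytochrome c, the mobile carrier between complexes III and IV that also triggers apoptosis when released from mitochondria. It had 374, 133, 70 and 645 reads in Day 0 and 0, 590, 42 and 1734 in Recurring libraries. The Recurring libraries thus held both the lowest and the highest value, and the log2 difference of -1.36 (SE 2.08) became 0.74 without Recurring replicate 1. Cycs has 3 near-identical pseudogenes in GENCODE vM21. A further one listed in the deposited table, Cycs-ps2, had at most 8 reads in a library.

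**Figure D4:**
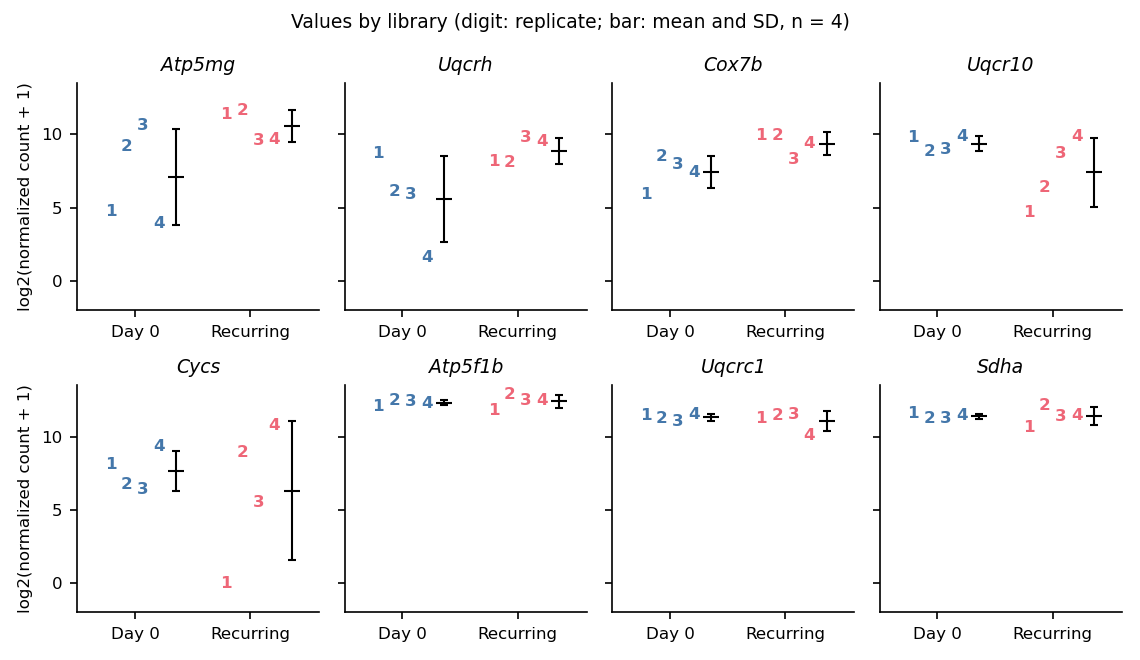
Log2(normalized count + 1) by library for 8 members, with the digit giving the replicate and the black bar the mean and SD (n = 4). In the upper row, the 4 members with the smallest unadjusted p, the Day 0 and Recurring values overlap in each; in the lower row Cycs spans the widest range and Atp5f1b, Uqcrc1 and Sdha the narrowest.

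Complex IV, cytochrome c oxidase, has its catalytic core encoded in mitochondrial DNA and surrounded by small nuclear subunits. Cox4i1 carries a site where ATP inhibits the enzyme. It had 2516, 1325, 755 and 1685 reads in Day 0 and 738, 2680, 1522 and 2323 in Recurring libraries, with Recurring replicate 1 the lowest after scaling. The log2 difference was 0.08 (SE 0.60). Cox6c had 1139, 1095, 631 and 2054 reads in Day 0 and 89, 676, 1915 and 2802 in Recurring libraries. Its normalized counts ran from 55.1 in Recurring replicate 1 to 2843 in Recurring replicate 4, and the log2 difference of -0.68 (SE 0.99) became 0.50 without Recurring replicate 1.

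Cox7b, a small subunit needed for assembly, had 79, 446, 208 and 166 reads in Day 0 and 1530, 1177, 286 and 660 in Recurring libraries. Its normalized counts were 58.7 to 355.7 in Day 0, and Recurring replicate 3, at 303.0, was the only Recurring library inside that range. The log2 difference was 1.92 (SE 0.99), with limma's unadjusted p at 0.0692 and its adjusted p at 0.981, and it lay between 1.41 and 2.29 with each library left out in turn. Cox5a, a subunit on the matrix side, had 795, 422, 75 and 176 reads in Day 0 and 603, 303, 351 and 1042 in Recurring libraries. Both groups spanned several-fold, and the log2 difference was 0.87 (SE 1.02).

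The other 7 members of complex IV had log2 differences between -0.38 and 0.55. They were Cox5b (0.55, SE 0.85), Cox6a1 (0.41, SE 1.21), Cox6b1 (0.39, SE 1.42), Cox8a (0.24, SE 0.67), Cox7c (0.19, SE 1.08), Cox7a2l (-0.01, SE 0.95) and Cox7a2 (-0.38, SE 0.86). Cox7a2l is known for joining complexes III and IV in supercomplexes. The widest of these was Cox6b1, which faces cytochrome c in the intermembrane space, with normalized counts from 18.6 in Recurring replicate 1 to 1621 in Recurring replicate 4.

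Complex V has a catalytic head in the matrix, a membrane rotor and stalks that join them. Its head subunits alpha and beta varied less between libraries than most members, with pooled within-group SDs of 0.54 and 0.34 on the log2 scale. Atp5f1b, the catalytic beta subunit, had 5813, 7064, 4476 and 4855 reads in Day 0 and 5812, 9464, 5240 and 5535 in Recurring libraries. Its normalized counts averaged 5043 ± 575.3 and 5602 ± 1650 (SD, n = 4), with Recurring replicate 1 the lowest and Recurring replicate 2 the highest of the 8. The log2 difference was 0.11, with a 95% interval of -0.57 to 0.79, and its SE of 0.32 was the smallest of the 37 members. Atp5f1a, the alpha subunit, had 2842, 4581, 2980 and 3557 reads in Day 0 and 3225, 6442, 3401 and 5222 in Recurring libraries, a log2 difference of 0.25 (SE 0.40). Per length, the log2 ratio of alpha to beta was -0.24 ± 0.25 in Day 0 and -0.09 ± 0.32 in Recurring libraries (SD, n = 4).

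Atp5f1c, the gamma subunit of the rotating central stalk, had 3057, 2352, 1002 and 1146 reads in Day 0 and 636, 1697, 887 and 2047 in Recurring libraries. The groups overlapped, with Recurring replicate 1 the lowest, and the log2 difference was -0.62 (SE 0.60). The delta subunit Atp5f1d differed by -0.54 (SE 0.62). The epsilon subunit Atp5f1e was at 0 in Day 0 replicates 3 and 4 and Recurring replicate 1. Elsewhere it had 188 and 146 reads in the first Day 0 libraries and 445, 37 and 121 in Recurring replicates 2 to 4. Its log2 difference of 1.69 (SE 2.59) was nearly as wide as that of Sdhc.

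Atp5mg showed the largest difference of the members and is the subunit g of the membrane part, linked to the pairing of ATP synthases along the cristae. It had 35, 716, 1278 and 14 reads in Day 0 and 4304, 3823, 733 and 799 in Recurring libraries. Its normalized counts were 26.0, 571.0, 1527 and 14 in Day 0 and 2666, 3086, 776.5 and 810.6 in Recurring libraries. Day 0 replicate 3 stood above Recurring replicates 3 and 4, so the groups overlapped. The log2 difference was 3.46 with a 95% interval of 0.75 to 6.17, and limma's unadjusted p was 0.0155 and its adjusted p 0.981. With each library left out in turn it lay between 2.40 and 4.62. Atp5mg has 9 near-identical pseudogenes in GENCODE vM21, the most of any member. Atp5l2-ps, the pseudogene of Atp5mg in the deposited table, had at most 16 reads in a library.

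The other membrane and stalk subunits gave smaller differences. Atp5me and Atp5mf, subunits e and f, differed by 0.11 (SE 0.98) and -1.14 (SE 1.17), and Atp5mf, at 15.5 normalized counts in Recurring replicate 1 against 400.3 or more elsewhere, differed by 0.29 without that library. Atp5pb, subunit b of the peripheral stalk, differed by -0.24 (SE 0.66).

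The rotor ring is built of subunit c, a protein whose mature form is the same from the genes Atp5mc1, Atp5mc2 and Atp5mc3. Atp5mc3 supplied most of their exon-length-scaled counts in every library, 78.4% ± 11.0 in Day 0 and 82.6% ± 10.7 in Recurring libraries (SD, n = 4). Atp5mc1 supplied 18.1% ± 10.3 and 13.9% ± 8.68, and Atp5mc2 3.43% ± 2.83 and 3.51% ± 2.80. The Atp5mc3 share ran from 64.9 to 91.7% in Day 0 and from 71.4 to 96.3% in Recurring libraries, so the groups overlapped. These shares depend on the annotated exon lengths, 4912 bases for Atp5mc1 and 2181 for Atp5mc3, which count rarely used exons too. Without that scaling, Atp5mc1 stood above Atp5mc3 in Day 0 replicate 4, at normalized counts of 1477 and 1331. Between groups Atp5mc3 differed by 0.27 (SE 0.44), Atp5mc1 by -0.30 (SE 0.78) and Atp5mc2 by -0.60 (SE 2.29) on the log2 scale, with Atp5mc2 at 0 reads in Recurring replicate 1.

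The spread between libraries was smaller in abundant members. The pooled within-group SD of the log2 values ran from 0.34 for Atp5f1b to 3.92 for Sdhc, with a median of 1.13 over the members against 2.36 over all genes tested. In the 19 more abundant members the median SD was 0.80, against 0.83 in the 3240 tested genes at or above the same mean level, a log2 of 8.89. In the 18 less abundant members it was 1.77, against 3.03 in the tested genes below that level. Those genes reach lower mean levels than any member, so this comparison and those with all genes tested are not matched for level. A difference of more than 1 log2 unit either way was found in 9 members (24.3%), against 47.0% of all genes tested. In 20 of the 37 members the 95% interval spanned more than 4 log2 units, so differences of several-fold could not be detected for them.

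**Figure D5:**
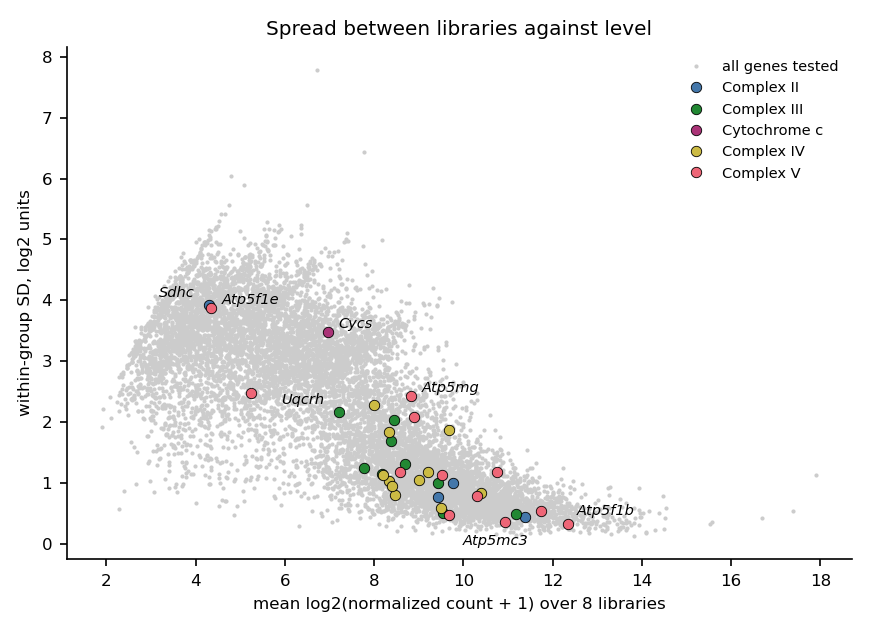
Within-group SD of log2(normalized count + 1) against its mean over the 8 libraries, for all 11078 genes tested (grey) and the members (coloured by complex). The members lie within the band of all genes, from Atp5f1b at an SD of 0.34 to Sdhc at 3.92.

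Outside the members, no gene of the pathway lists passed the adjusted threshold. Among 7 tested genes of other subunits and isoforms of complexes III to V, 4 were higher in Recurring libraries (median 0.76). Atp5mj, a small membrane subunit of the ATP synthase, had the smallest unadjusted p, at a log2 difference of 2.13 (SE 1.48). Of the 37 complex I subunits, 20 were higher (median 0.16), with differences from -3.01 to 2.29. Ndufa5, a subunit of the peripheral arm, had the smallest unadjusted p, at 1.41 (SE 0.84). In 2 of the 37 the groups did not overlap, against 2.41% of all genes and 0 of the members here. They were Ndufa5, at normalized counts of 110.3 to 434.2 in Day 0 and 505.4 to 1055 in Recurring libraries, and Ndufb1, at 155.5 to 403.7 and 0 to 120.8, a difference of -3.01. Of 25 tested assembly factors of complexes II to V, 12 were higher (median -0.02). The copper-related factor Cox19 had 0, 674, 153 and 0 reads in Day 0 and 1167, 405, 392 and 668 in Recurring libraries. Its normalized counts overlapped between the groups, and its log2 difference was 4.84 (SE 2.20), with limma's adjusted p at 0.981.

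Of the 15 tested nuclear regulators of these genes, 9 were lower in Recurring libraries, with a median of -1.13 against 0.005 over all genes. Gabpb1, the partner that lets the ETS protein GABPA activate transcription, had 959, 172, 505 and 685 reads in Day 0 and 0, 41, 351 and 333 in Recurring libraries. Its ranges overlapped, and its log2 difference was -3.30 (SE 1.86), with limma's adjusted p at 0.981. Gabpa itself differed by -2.09 (SE 2.21) and Nrf1 by 0.85 (SE 0.89). Ppargc1a, a coactivator of mitochondrial biogenesis, differed by -0.39 (SE 2.36). In Esrra, a nuclear receptor that works with it, the groups did not overlap, at 202.0 to 426.0 and 29.9 to 163.1 (-2.08, SE 1.39, with limma's adjusted p at 0.981). These 4 and Ndufb1 were named after their values were seen.

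Of the pyruvate dehydrogenase and tricarboxylic acid cycle genes, 10 of 15 were higher (median 0.16), and Fh1, fumarase, which follows complex II in the cycle, had the smallest unadjusted p. It had 866, 514, 288 and 650 reads in Day 0 and 2, 10, 465 and 259 in Recurring libraries, with Recurring replicates 1 and 2 far below the rest, and a log2 difference of -3.62 (SE 1.80). Of 7 carriers and porins, 5 were higher (median 0.51), and Vdac2, an outer membrane porin, differed by 2.48 (SE 1.24). Of 39 cytosolic ribosomal protein genes, taken as another set of short and abundant transcripts, 27 were higher (median 0.33), and Rpl8 differed by 3.25 (SE 1.79).

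Subunits encoded in mitochondrial DNA were scarce in these nuclear libraries. The share of reads from the 9 in the table was 0.0158% ± 0.0127 in Day 0 and 0.0463% ± 0.0284 in Recurring libraries (SD, n = 4), a difference of 0.0305 percentage points with a 2-sided exact permutation p of 0.114, where 0.0286 is the smallest p the 70 assignments allow. The shares were 0.0345, 0.00594, 0.0111 and 0.0119% in Day 0 and 0.0274, 0.0787, 0.0181 and 0.0610% in Recurring libraries. Day 0 replicate 1 thus lay above Recurring replicates 1 and 3. Of the 7 tested, 4 were higher (median 1.05). The complex IV core subunit mt-Co1 had 816, 295, 425 and 592 reads in Day 0 and 1057, 6903, 1065 and 2945 in Recurring libraries. Its normalized counts did not overlap, at 235.3 to 606.7 against 654.6 to 5573, and its log2 difference was 2.04 (SE 0.72), with limma's adjusted p at 0.981. Copies of mitochondrial genes in nuclear DNA can share these reads.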

How the data were processed

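Nuclear RNA of 8 mouse libraries was analysed, 4 labelled Day 0 and 4 labelled Recurring place cells. Per the submitters' processing notes, STAR, HTSeq and the build GRCm39 were used, with their roles and versions not given in the sources used here. The authors deposited 1 table of a signal per gene and library on a linear scale. The deposited signal of a gene was whole reads times a constant of that gene, with no correction for library depth. Once divided by these constants, 95910 of 95910 values above 0 (100%) lay within 0.1 read of a whole number, at most 0.00421 read away, and no column of another sample was present. This step and the test below were tested on simulated data.

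Size factors by the median of ratios gave normalized counts. The test was limma 3.58.1 (R 4.3.3) with trend on log2(normalized count + 1), a pseudocount of 1, Benjamini-Hochberg adjustment over the 11078 genes that reached a normalized count of 10 in 4 libraries or more, and a threshold of 0.05. The mitochondrially encoded share was compared by a 2-sided exact permutation test over 70 assignments. The members, gene lists and rules were chosen with earlier results of these data known. By the rule for named genes, reads in every library were given for the 2 members of each complex with the smallest unadjusted p and the 2 with the highest mean normalized count, for Cycs, and for any member that missed the filter (0). Members at 0 reads anywhere were named, as was the gene of each pathway list with the smallest unadjusted p. Exon lengths, overlaps and pseudogenes came from GENCODE vM21 and promoter windows from RefSeq, both on GRCm38, an earlier build than that of the table, so no position was carried between them. Alternatives were other pseudocounts, filters, scalings and limma settings, and each library left out in turn. Other cell type markers and pathway genes that are not in the table were not analysed here.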

Additional observations from a re-analysis of the deposited data

Results flagged for a closer look

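In 74 groups of 4 libraries, 37 genes in each group, a library was taken as far from the others when its gap to the nearest, divided by the group's range, was above Dixon's 95% critical value for groups of 4. Chance alone gives about 1 such group in 20, and 5 were found. All values are log2 of the normalized count plus 1.

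Of the 5, 3 lay in Day 0 replicate 4. Uqcrfs1, the Rieske protein of complex III, was at 3.70 there, against 8.82 to 9.86 in the other Day 0 libraries. Cox5b of complex IV was at 6.92, against 9.48 to 9.73. Cox6c of complex IV was at 11.01, above the 9.56 to 9.77 of the others, so that library was low in 2 of these genes and high in the other. Atp5f1a, the alpha subunit of complex V, was at 11.05 in Day 0 replicate 1, against 11.80 to 11.84 in the other Day 0 libraries. Atp5mc2, a gene of the rotor subunit c, was at 0.0 in Recurring replicate 1, against 6.25 to 6.77 in the other Recurring libraries.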

How the results depend on the processing

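No paired analysis was possible because the labels give the groups no shared replicate numbers. None of the 37 members passed the adjusted threshold under the main setting or any of the 18 alternatives, with a lowest adjusted p of 0.913 (Atp5mg, voom on the recovered reads). Over all genes, 0 were called by limma and by voom, and 2, neither a member, without a variance trend; 401 were at an unadjusted p under 0.05, and 650 with no filter on low values. Members at an unadjusted p under 0.05 numbered 1, 2 with the deposited values as they stand (Uqcrh and Atp5mg), and 0 to 2 with a library left out, where all genes gave 381 to 508. Without a variance trend the 1 was Cox7b and with library weights Uqcrh, in place of Atp5mg. Members higher in Recurring numbered 20, or 13 by voom, and 14 to 29 with a library left out. The complex medians moved between the alternatives, and in every complex the sign turned under at least 1 of them. With a library left out they ran from 0.07 to 0.49 in complex II, -0.38 to 0.11 in III, -0.01 to 0.67 in IV and -0.44 to 0.38 in V. Under the other alternatives they ran from -0.10 (library weights) to 0.49 in II, -0.40 (voom) to -0.13 in III, -0.10 (voom) to 0.34 in IV and -0.24 (voom) to 0.09 (library weights) in V. The mitochondrially encoded share differed by 0.0197 to 0.0399 percentage points with a library left out.

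With a library left out, 21 of 37 members (56.8%) changed direction at least 1 time, against 46.9% of all genes tested. Their ranges were -0.23 to 0.27 for Sdha, -0.63 to 0.64 for Uqcr11, -0.48 to 0.55 for Uqcrb, -0.38 to 0.10 for Uqcrc1, -0.24 to 1.81 for Uqcrfs1, -1.21 to 0.11 for Uqcrq and -2.85 to 0.74 for Cycs. In complex IV they were -0.17 to 0.62 for Cox4i1, -0.13 to 0.84 for Cox5b, -0.47 to 1.21 for Cox6a1, -0.43 to 1.70 for Cox6b1, -1.39 to 0.50 for Cox6c, -0.37 to 0.27 for Cox7a2l, -0.36 to 0.67 for Cox7c and -0.01 to 0.51 for Cox8a. In complex V they were -0.06 to 0.30 for Atp5f1b, -0.74 to 0.35 for Atp5mc1, -1.21 to 1.04 for Atp5mc2, -0.40 to 0.67 for Atp5me, -1.85 to 0.29 for Atp5mf and -0.65 to 0.42 for Atp5pb. Among the other alternatives, 12 members changed direction. By voom the differences were -0.06 for Sdha, -0.13 for Uqcrb, -0.11 for Cox4i1, -0.10 for Cox6a1, -0.44 for Cox6b1, -0.09 for Cox7c and -0.13 for Atp5me. With library weights they were -0.50 for Sdhc, 0.21 for Uqcr11, 0.16 for Cox6c, 0.18 for Cox7a2l and 0.08 for Atp5pb. With scaling by total reads Sdha was at -0.04, by upper quartile Sdha at -0.06 and Uqcrb at -0.02, and with the deposited values Cox7a2l at 0.09. None of these differences had passed the threshold, and the cause was not tested.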
